A study of Homo sapiens with 4 samples.

Results

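Transcripts of the RBM family, genes named for an RNA-binding motif, were compared between RNA pulled down with the m6A demethylase ALKBH5 and input RNA in the cell line NOMO-1, which derives from a human acute leukaemia of the myeloid lineage. The members are the gene symbols made of RBM, a number and at most 1 letter. RBM15 and RBM15B were left out because their proteins serve the m6A writer complex. The rule found 35 of the 26830 symbols in the deposited table, and 20 of the 35 had a mean of at least 1 TPM over the 4 libraries and could be tested. The other 15 were below that level, and 4 of these were listed at 0 in every library.

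RBM proteins bind RNA through RNA recognition motifs and act at nearly every step of an mRNA's life. Several sit in or beside the spliceosome and steer the choice of splice sites, others belong to the exon junction complex, to nuclear RNA decay complexes or to the machinery of ribosome assembly. RBM33 is of particular interest here, because its protein has been described as a partner of ALKBH5 that brings it to methylated RNA. Many splicing regulators control their own mRNA through alternative or retained exons and introns, which is background and was not measured here.

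All 4 libraries came from cells that overexpressed ALKBH5 with a 3xFlag tag from a lentivirus, with puromycin selection, GFP sorting and UV crosslinking before lysis. Input 1 and input 3 hold RNA taken before the pull-down, and Flag-IP 1 and Flag-IP 3 hold RNA recovered with an anti-Flag antibody, so that there were 2 libraries in each group. No pull-down from untagged cells is analysed here, and the labels do not state whether the numbers 1 and 3 stand for separate cultures, so p-values describe the spread between these libraries only. Values are TPM, an abundance per transcript length that sums to 1000000 in each library. TPM keeps no read depth, and a value listed at 0 is no proof of absence. Of 15 markers of myeloid and monocytic leukaemia cells 10 had an input mean of at least 1 TPM, while CD14 was listed at 0 throughout and MPO and CSF1R were at or below 0.13 TPM. Of 20 markers of other cell types 1 reached 1 TPM (NKG7), and 12 were listed at 0 throughout.

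In all tested genes together, the ratio of the Flag-IP mean to the input mean had a median of 2.38. Structural RNAs filled 96.3% to 96.8% of the input libraries and 92.5% to 93.6% of the Flag-IP libraries. Since TPM sums to a fixed total, differences were taken on a median-ratio scale, where each library is divided by its typical ratio over the tested genes, and are given as Flag-IP minus input in log2(scaled TPM + 1) with a standard error from limma. "Higher" and "lower" below mean an adjusted p under 0.05 on this scale unless the deposited scale is named. The added 1 makes the differences of transcripts near 1 TPM smaller than the ratio of their TPM values.

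The family divided. Relative to the typical gene 6 of the 20 tested members were higher in Flag-IP (RBM5, RBM6, RBM39, RBM25, RBM26 and RBM33), 4 were lower (RBM38, RBM34, RBM8A and RBM17) and 10 did not pass. That is 30% higher and 20% lower, against 22.3% and 18.6% of all 6487 tested genes, so the shares lay near the background. The members' median difference was 0.05, beside -0.01 over all tested genes, and the members ranged from -0.57 to 1.77. On the deposited scale 16 members were higher and 0 lower, 80% of those tested, where 86.6% of all tested genes were called higher and 0.74% lower. The median deposited difference was 1.00 for the members and 0.84 for all tested genes. In 7 of the 20 the input mean was below 1 TPM, so these passed the filter through their Flag-IP values, RBM25 and RBM33 among them. With each library left out in turn, which leaves 1 library in a group, the 6 higher members kept positive differences and the 4 lower members negative ones. Fewer lower calls were then made, among the members and among all tested genes alike. When the scaling was done without structural RNAs, which moved the median of all tested genes to 0.24, 8 members were higher (RBM23 and RBM28 in addition) and RBM38 alone was lower, where 35.1% and 11.3% of all tested genes were called.

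**Figure D1:**
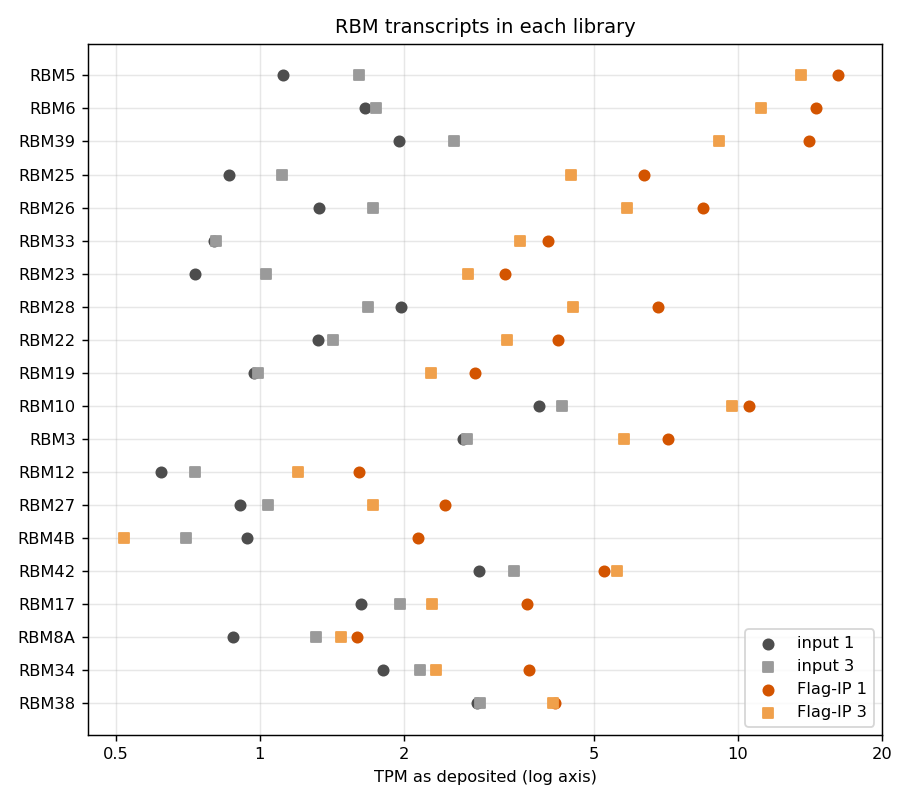
TPM as deposited in each of the 4 libraries for the 20 tested RBM transcripts, on a log axis, with grey symbols for input and orange symbols for Flag-IP and genes ordered by their difference on the median-ratio scale. The Flag-IP symbols of RBM5 lie at 13.54 and 16.19 TPM and its input symbols at 1.12 and 1.61, while for RBM8A the groups lie close, from 0.88 to 1.60 TPM.

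The members also changed places. In both inputs RBM10, RBM42 and RBM38 were the 3 most abundant members by TPM, with RBM5 ranked 12 in input 1 and 11 in input 3. In both Flag-IP libraries RBM5 ranked 1 and RBM6 ranked 2. RBM5, RBM6 and RBM39 together made up 13.8% and 15.2% of the family's TPM in input 1 and 3, and 34.4% and 33.4% in Flag-IP 1 and 3. As these 3 were singled out after their values were seen, that share is a description.

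**Figure D2:**
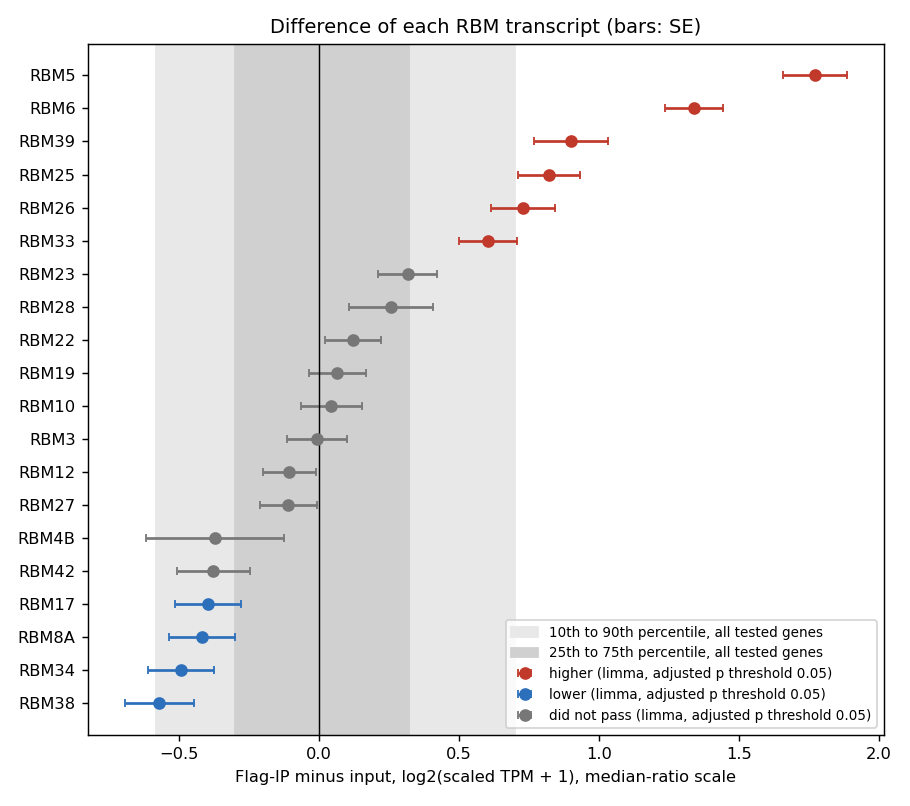
Difference between Flag-IP and input for each tested RBM transcript on the median-ratio scale (log2 of scaled TPM + 1), with standard errors from limma and grey bands for the middle of all 6487 tested genes. RBM5, RBM6, RBM39, RBM25 and RBM26, from 1.77 down to 0.73, lie above the wider band, which runs from -0.58 to 0.70, and the 4 lower members lie between -0.57 and -0.40.

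ALKBH5 acts on N6-methyladenosine, which the writer complex places mostly on adenosines within a short consensus, and GGACT, written with T for the U of RNA, is one of its commonest forms. The windows below show where this sequence stands in the coding part of the 6 higher members, of RBM10 as the abundant relative of RBM5 and RBM6, and of the paralogues RBM4 and RBM4B. Each is the GGACT nearest the end of the coding sequence whose 25-base window lies within a single coding exon of the representative transcript (GENCODE 29, GRCh38). The letters are those of the transcript, 5′ to 3′, with GGACT in capitals. They are matches of letters and not measured methylation sites, since the values are per gene.
RBM5: gcaggcggagGGACTcagattacaa
RBM6: aatgcttttcGGACTcctgatggca
RBM10: ccctccgcgaGGACTggtggcagcc
RBM39: gaactggaaaGGACTggaattgatt
RBM25: gccaaaaataGGACTaagtcttaaa
RBM26: ggatagtagtGGACTcagaatcaag
RBM33: ggcgtgaaaaGGACTgtcacgcaca
RBM4: agccggcttaGGACTgcgcccggga
RBM4B: agccggcttcGGACTgcccctggta
The RBM5 window is at chr3:50092120-50092144 (plus strand, exon 3 of 25), that of RBM6 at chr3:49975329-49975353 (plus strand, exon 5 of 21) and that of RBM10 at chrX:47185444-47185468 (plus strand, exon 20 of 24). The RBM39 window is at chr20:35714230-35714254 (minus strand, exon 11 of 17), RBM25 at chr14:73111127-73111151 (plus strand, exon 15 of 19), RBM26 at chr13:79359635-79359659 (minus strand, exon 10 of 22) and RBM33 at chr7:155745507-155745531 (plus strand, exon 14 of 18). RBM4 (chr11:66643479-66643503, plus strand, exon 2 of 3) and RBM4B (chr11:66669238-66669262, minus strand, exon 2 of 3) are neighbours on opposite strands, and their windows differ at 4 of 25 positions. Searched on the sense strand alone, GGACT occurred in all 20 representative transcripts of the tested members and in 90.3% of those of 5963 tested protein-coding genes.

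Of the 6 members that act at the 3′ splice site and on U2, 3 were higher and 1 lower, with a median difference of 0.61, and as deposited all 6 were higher. Over all tested genes 22.3% were higher and 18.6% lower, and 86.6% were higher as deposited, so that counts in role groups this small are descriptions only. RBM5, a splicing regulator also described as a tumour suppressor, stood at 1.12 TPM in input 1 and 1.61 in input 3 and at 16.19 TPM in Flag-IP 1 and 13.54 in Flag-IP 3. Both Flag-IP libraries lay far above both inputs. The Flag-IP mean was 10.9 times the input mean (14.9 ± 1.87 against 1.37 ± 0.346 TPM, SD, n = 2), 4.58 times the ratio of the median gene. The difference was 1.77 ± 0.11 (limma adjusted p = 0.00051), and 0.894% of tested genes had a larger one. RBM6, its relative and neighbour on chromosome 3, stood at 1.66 and 1.75 TPM in input 1 and 3 and at 14.56 and 11.14 TPM in Flag-IP 1 and 3. It showed the second largest difference of the family, 1.34 ± 0.10 (limma adjusted p = 0.00078), with a ratio of 7.54. RBM5 (chromosome 3, 50088908 to 50119021, plus strand) and RBM6 (chromosome 3, 49940007 to 50100045, plus strand) share 456 exonic bases in the annotation, and 13.5% of the 31-base words of the RBM5 transcript also occur in transcripts annotated to RBM6. Some of their reads may therefore be assigned to either gene. Of the 31-base words of the representative RBM6 transcript 0% occur in other genes, so the sharing lies in other transcripts annotated to RBM6. The antisense transcript RBM5-AS1, which overlaps both, was at 0 and 0.10 TPM in input and 0.79 and 0.34 TPM in Flag-IP, and whether the authors counted by strand is not given in the sources used here.

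RBM10, the third member of this trio by protein similarity, did not follow RBM5 and RBM6. It was the most abundant member in input, at 3.84 and 4.29 TPM in input 1 and 3 and 10.52 and 9.69 TPM in Flag-IP 1 and 3. After scaling the groups overlapped, and the difference was 0.04 ± 0.11 (limma adjusted p = 0.77). NDUFB11, on the opposite strand, overlaps 16.4% of the annotated exonic bases of RBM10. It was at 5.81 and 6.93 TPM in input 1 and 3 and at 12.32 and 12.78 TPM in Flag-IP 1 and 3. Whether reads of NDUFB11 were counted for RBM10 was not tested, which also limits the ratios to RBM10 below. A ratio of 2 transcripts within a library does not depend on scaling. RBM5 over RBM10 was 0.292 and 0.375 in the inputs and 1.54 and 1.40 in the Flag-IP libraries, a 4.43-fold rise of the geometric mean. RBM6 over RBM10 was 0.432 and 0.408 in input and 1.38 and 1.15 in Flag-IP, 3.00-fold. RBM5 over RBM6 moved less, from 0.675 and 0.920 to 1.11 and 1.22, 1.48-fold. In all 3 ratios the groups did not overlap. With 2 libraries against 2 the exact permutation test, two-sided, cannot go below 0.333, the value it gave for each of these 3. In all 8 ratios between relatives were computed, chosen after their values were seen, and with Benjamini-Hochberg adjustment over the 8 the p was 0.381 for the 7 without overlap. How often the groups separate for other pairs of genes was not computed, so that count is a description only.

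**Figure D3:**
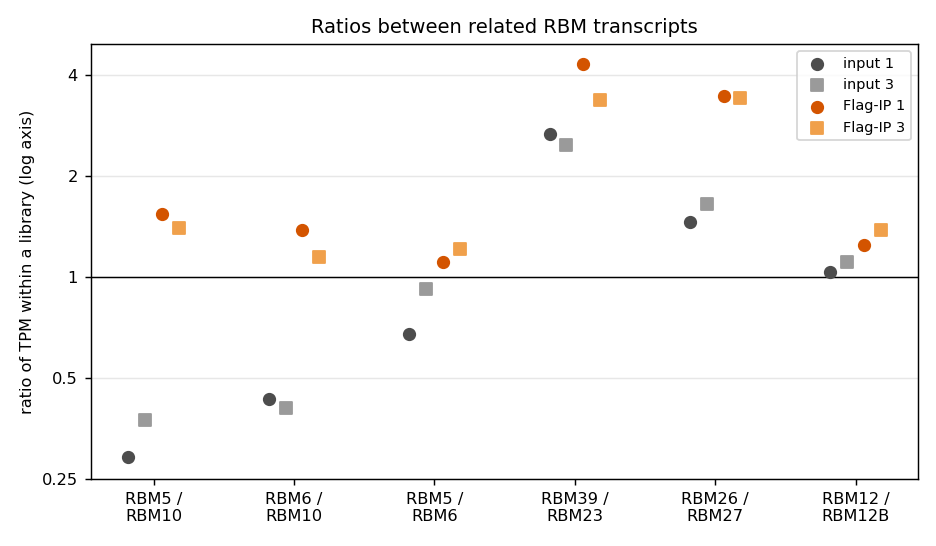
Ratio of TPM between related RBM transcripts within each library, on a log axis, with grey symbols for the 2 inputs and orange symbols for the 2 Flag-IP libraries. The ratio of RBM5 to RBM10 lies at 0.292 and 0.375 in input and at 1.54 and 1.40 in Flag-IP, and in the 6 ratios drawn both Flag-IP libraries lie above both inputs (RBM4B over RBM4, which overlapped, and CIRBP over RBM3 are not drawn). The pairs were chosen after their values were seen, and the share over other pairs of genes was not computed.

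RBM39, a splicing coactivator related to U2AF and the target that aryl sulfonamide drugs hand over for degradation, was at 1.95 and 2.55 TPM in input 1 and 3 and at 14.06 and 9.12 TPM in Flag-IP 1 and 3. Its Flag-IP values were well above input but also far apart from each other. The difference was 0.90 ± 0.13 (limma adjusted p = 0.0042) and the ratio 5.15. RBM39 lies on chromosome 20, 35701347 to 35742312, minus strand, and 10.6% of its 31-base words also occur in another annotated gene. Its close paralogue RBM23 was at 0.73 and 1.03 TPM in input and 3.26 and 2.72 TPM in Flag-IP, a difference of 0.32 ± 0.11 that did not pass (limma adjusted p = 0.059). The ratio of RBM39 to RBM23 was 2.67 and 2.48 in input and 4.31 and 3.35 in Flag-IP, without overlap (exact permutation p = 0.333). RBM17, the spliceosome protein SPF45, went the other way relative to the typical gene. It was at 1.63 and 1.96 TPM in input and 3.62 and 2.29 TPM in Flag-IP, or 1.65 times. It was therefore called higher as deposited (0.48 ± 0.21, limma adjusted p = 0.025) and lower after scaling (-0.40 ± 0.12, limma adjusted p = 0.040). RBM17 was the only member called in opposite directions on the 2 scales. The lower call was lost with any 1 of the 4 libraries left out (adjusted p from 0.057 to 0.18) and with the replicate number as a block (0.058), and the higher call without input 1, without input 3 or without Flag-IP 1 (adjusted p = 0.27, 0.096 and 0.29) and with the block (0.12). With no filter both calls were lost (adjusted p = 0.077 for the lower and 0.12 for the higher).

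Among the members in the spliceosome and its snRNPs 1 of 3 tested was higher, a description only beside 22.3% of all tested genes. RBM25, which associates with U1 and promotes the use of 5′ splice sites, was at 0.86 and 1.11 TPM in input 1 and 3 and at 6.37 and 4.48 TPM in Flag-IP 1 and 3. The groups were far apart, with a ratio of 5.51 and a difference of 0.82 ± 0.11 (limma adjusted p = 0.0033). With an input mean of 0.985 TPM, RBM25 passed the filter through its Flag-IP values, and its call supports nothing about this role group. RBM25 lies on chromosome 14, 73058436 to 73123898, plus strand. RBM22, a protein of the catalytic core, was at 1.32 and 1.42 TPM in input and 4.2 and 3.28 TPM in Flag-IP (0.12 ± 0.10, not passed). RBM42, found with the tri-snRNP, was at 2.87 and 3.40 TPM in input and 5.24 and 5.57 in Flag-IP, a ratio of 1.72 below that of the typical gene (-0.38 ± 0.13, limma adjusted p = 0.062), and without Flag-IP 3 it was called lower (-0.51, adjusted p = 0.042). RBM41 and RBM48, linked to the minor spliceosome, had at most 0.41 TPM in any library and were not tested.

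Of the 3 tested exon junction and nuclear decay members 1 was higher, 1 was lower and 1 did not pass. Over all tested genes 22.3% were higher and 18.6% lower, so these counts are descriptions only. RBM26, a partner of the PAXT connection that targets polyadenylated nuclear RNA for decay, was at 1.33 and 1.72 TPM in input 1 and 3 and 8.45 and 5.86 TPM in Flag-IP 1 and 3. Both Flag-IP libraries stood clear of the inputs (0.73 ± 0.11, limma adjusted p = 0.0054, ratio 4.69). RBM26 lies on chromosome 13, 79311824 to 79406477, minus strand. Its paralogue RBM27 was at 0.91 and 1.04 TPM in input and 2.44 and 1.72 TPM in Flag-IP, close to the typical gene (-0.11 ± 0.10, adjusted p = 0.42). RBM26 over RBM27 was 1.46 and 1.65 in input and 3.46 and 3.41 in Flag-IP, a 2.21-fold rise with tight values in both groups (exact permutation p = 0.333). In the annotation 45.6% of the 31-base words of RBM27 also occur in a readthrough gene that has no row under that name among the values used here, so whether it took reads from RBM27 was not tested. RBM8A, the core exon junction protein Y14, was at 0.88 and 1.31 TPM in input and 1.60 and 1.48 TPM in Flag-IP, the smallest ratio of any tested member, 1.41. Relative to the typical gene it was lower (-0.42 ± 0.12, limma adjusted p = 0.033), a call lost without input 3, without Flag-IP 1 or without Flag-IP 3 (adjusted p = 0.12, 0.15 and 0.093). Of the 31-base words of RBM8A 10.7% also occur in other annotated genes, and GNRHR2 overlaps 15.4% of its exonic bases on the opposite strand. Whether this moved the level of RBM8A was not tested. RBM7, the RNA-binding subunit of the NEXT decay complex, was at 0.26 and 0.47 TPM in input and 0.98 and 0.49 in Flag-IP and was not tested.

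RBM33, the described partner of ALKBH5, was at 0.80 and 0.81 TPM in input 1 and 3 and at 4.01 and 3.50 TPM in Flag-IP 1 and 3. As deposited these are the most even values of the 6 higher members, and the groups are well separated. With an input mean of 0.805 TPM, RBM33 passed the filter through its Flag-IP values, and its call supports nothing about the family. The ratio was 4.66 and the difference 0.60 ± 0.10 (limma adjusted p = 0.0070). RBM33 lies on chromosome 7, 155644451 to 155781485, plus strand, and its longest annotated transcript has 10149 bases. Set against genes of like transcript length its difference fell to 0.16 and did not pass (limma adjusted p = 0.27), the only one of the 6 higher calls that this alternative removed. The mRNA of the bait itself, ALKBH5, was at 4.62 and 4.91 TPM in input and 10.09 and 8.91 in Flag-IP (-0.24 ± 0.11, adjusted p = 0.12). RBM45, an RNA-binding protein of the nervous system also linked to m6A, was at 0.23 and 0.17 TPM in input and 0.93 and 0.86 TPM in Flag-IP, too low to be tested.

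None of the 3 nucleolar members was higher and 1 was lower, descriptions only beside 22.3% and 18.6% of all tested genes. RBM28, a factor of ribosome assembly, was at 1.97 and 1.68 TPM in input and 6.79 and 4.51 TPM in Flag-IP (0.26 ± 0.15, limma adjusted p = 0.21). RBM19, which takes part in ribosomal RNA processing, was at 0.97 and 0.99 TPM in input and 2.82 and 2.28 TPM in Flag-IP (0.06 ± 0.10, not passed). RBM34 was at 1.81 and 2.16 TPM in input 1 and 3 and at 3.65 and 2.33 TPM in Flag-IP 1 and 3, where Flag-IP 3 lay barely above input 3. Relative to the typical gene RBM34 was lower (-0.49 ± 0.12, limma adjusted p = 0.019), a call lost without input 1, without input 3 or without Flag-IP 3 (adjusted p = 0.054, 0.065 and 0.097). Of its 31-base words 88.0% also occur in other annotated genes, mostly in ARID4B, the neighbour whose annotated exons overlap it on the same strand, so the level of RBM34 is uncertain. ARID4B itself was at 0.79 and 1.04 TPM in input and 3.10 and 2.25 in Flag-IP (0.17 ± 0.10, not passed).

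Of the regulators of splicing, stability and translation, none was higher and 1 of 3 was lower. Beside 22.3% and 18.6% of all tested genes, these counts too are descriptions only. RBM38, a p53 target that binds and stabilises transcripts, was at 2.85 and 2.89 TPM in input 1 and 3 and at 4.14 and 4.11 TPM in Flag-IP 1 and 3. As deposited the replicates were nearly equal in each group, and the ratio of 1.44 was 0.604 times that of the median gene. After scaling they lay further apart, at 4.75 and 4.14 in input 1 and 3 and 2.40 and 2.94 in Flag-IP 1 and 3. Its difference of -0.57 ± 0.12 (limma adjusted p = 0.014) was the lowest of the family, and it did not pass without input 1 (adjusted p = 0.058) or without Flag-IP 1 (adjusted p = 0.077). RBM38 lies on chromosome 20, 57391407 to 57409333, plus strand. RBM3, a cold-inducible protein, was at 2.66 and 2.71 TPM in input and 7.14 and 5.76 TPM in Flag-IP, the same as the typical gene within its error (-0.01 ± 0.11, adjusted p = 0.97). RBM4B was at 0.94 and 0.70 TPM in input and 2.14 and 0.52 in Flag-IP, the only tested member whose deposited groups overlapped (-0.37 ± 0.25, adjusted p = 0.27), and without Flag-IP 1 it was called lower (-0.65, adjusted p = 0.046). RBM4B over RBM4 was 4.95 and 2.80 in input and 3.69 and 0.605 in Flag-IP, 0.401-fold with overlap (exact permutation p = 0.667). RBM4, its neighbour, shares 66.7% of its 31-base words with the readthrough gene RBM14-RBM4, so that the levels of RBM4 (0.19 to 0.86 TPM over the libraries), RBM14 (0.15 to 0.63) and the readthrough (0.81 to 2.14) cannot be separated with confidence. RBM12, whose role is little described, was at 0.62 and 0.73 TPM in input and 1.61 and 1.2 TPM in Flag-IP (-0.11 ± 0.09, not passed).

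The 15 members that were not tested had no value above 1.29 TPM. RBM11, RBM20, RBM24 and RBM46, best known from muscle, brain, testis and germ cells, were listed at 0 in all 4 libraries, and RBM44, of the germ line, had at most 0.12 TPM. On the deposited scale 10 of the 15 had both Flag-IP values above both input values, as had 19 of the 20 tested members (95%) and 93.1% of all tested genes. For the 10 untested members above 0 in both inputs the ratio of means ran from 1.57 (RBM18) to 7.44 (RBM43), with a median of 2.50 beside 2.38 for the tested genes. RBM43 went from 0.05 and 0.11 TPM in input to 0.67 and 0.52 in Flag-IP, levels at which the 2 decimals of the deposited values limit any ratio. No tested member had both Flag-IP values below both inputs as deposited (0%, against 1.09% of all tested genes). After scaling 9 tested members had both Flag-IP values above both inputs (45%, against 37.0% of all tested genes) and 7 had both below (35%, against 37.1%).

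Of 15 U2 and 3′ splice site partners 6 were higher and 3 lower, with a median of 0.35 (all 15 were higher on the deposited scale). SUGP2, a protein related to the splicing factor SUGP1, was at 1.81 and 2.15 TPM in input and 19.43 and 15.15 TPM in Flag-IP (1.57 ± 0.10, limma adjusted p = 0.00049). SF3B1, the U2 protein that holds the branch site, had the highest level of this list and a difference of 0.96. Of 7 tested NEXT and PAXT partners 2 were higher and 1 lower, with a median of 0.24, and as deposited all 7 were higher. ZFC3H1, the PAXT scaffold that works with RBM26, was at 0.71 TPM in both inputs and at 6.71 and 4.39 TPM in Flag-IP (1.10 ± 0.12, limma adjusted p = 0.0019). As its input values were below 1 TPM, it too passed the filter through Flag-IP, and its call supports nothing about the list. SRRT, a cap-binding partner, had the highest level and a difference of 0.93. Of 9 tested exon junction partners of RBM8A 1 was higher and 1 lower, with a median of -0.09, and 8 were higher as deposited. PYM1, which takes the complex apart, was at 1.78 and 1.96 TPM in input and 1.17 and 1.79 TPM in Flag-IP, with overlap as deposited (-0.99 ± 0.16, limma adjusted p = 0.0059), while UPF3B (-0.41) and RNPS1 (-0.09) did not pass. These lists were read as counts only, beside 22.3% higher and 18.6% lower among all tested genes. On the deposited scale 86.6% of all tested genes were higher.

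Of the 5 tested relatives outside the naming rule 2 were higher and 1 lower, beside 22.3% and 18.6% of all tested genes. As deposited 4 of these relatives were higher, beside 86.6% of all tested genes. CIRBP, the other cold-inducible RNA-binding protein and a relative of RBM3, was at 2.26 and 2.91 TPM in input and 12.88 and 12.37 TPM in Flag-IP (0.88 ± 0.12, limma adjusted p = 0.0035). CIRBP over RBM3 was 0.850 and 1.07 in the inputs and 1.80 and 2.15 in the Flag-IP libraries, without overlap (exact permutation p = 0.333). RNPC3, a minor spliceosome protein, was at 0.24 and 0.39 TPM in input and 3.86 and 2.36 in Flag-IP (1.00 ± 0.13, adjusted p = 0.0029). Its input mean of 0.315 TPM lay below 1 TPM, so it passed the filter through its Flag-IP values, and its call supports nothing about these relatives. RBMX, the most abundant of these relatives, did not pass (0.25 ± 0.10). Of 9 tested SRSF-named genes 3 were higher and 1 lower (median 0.05), and of 20 tested HNRNP-named genes 1 was higher and 6 lower (median -0.17), against 22.3% and 18.6% of all tested genes. As deposited all 9 and all 20 were higher and 0 lower, beside 86.6% higher and 0.74% lower among all tested genes. The difference between these families was not tested.

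The members that were higher had many exons, and their longest annotated transcripts, of any type, were long. These ran from 4324 (RBM6) to 10149 bases (RBM33), against 2054 to 4961 bases in the 4 lower members. The higher members' representative transcripts had 17 to 25 exons, against 4 to 12 in the lower ones. In bases the representative transcripts overlapped. Those of RBM39, RBM5 and RBM6 had 2488, 3188 and 3750 bases, within the 2054 (RBM34) to 4961 (RBM8A) of the lower members. Across the 20 tested members Spearman's rho between the difference and the longest transcript was 0.54, and with the number of exons 0.65. Across 5963 tested protein-coding genes the values were 0.47 and 0.57, so the family followed the trend of all genes. Points share the same 4 libraries, and genes are not independent replicates. Length did not sort the members fully, since RBM28 and RBM23, with 15507 and 10040 bases, did not pass, and RBM10, with 24 exons, was at the level of the typical gene. The 10 members that did not pass ran from 1680 to 15507 bases and from 3 to 25 exons. RBM19, with 25 exons, and RBM27, with 21, were among them. With the length trend of all genes removed, RBM5 was at 1.53, RBM6 at 1.22, RBM39 at 0.64, RBM25 at 0.53 and RBM26 at 0.50, all still past the threshold, while RBM12 and RBM27 became lower (-0.39 each, limma adjusted p = 0.0062 and 0.015) and RBM34 no longer passed (-0.30, adjusted p = 0.075).

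**Figure D4:**
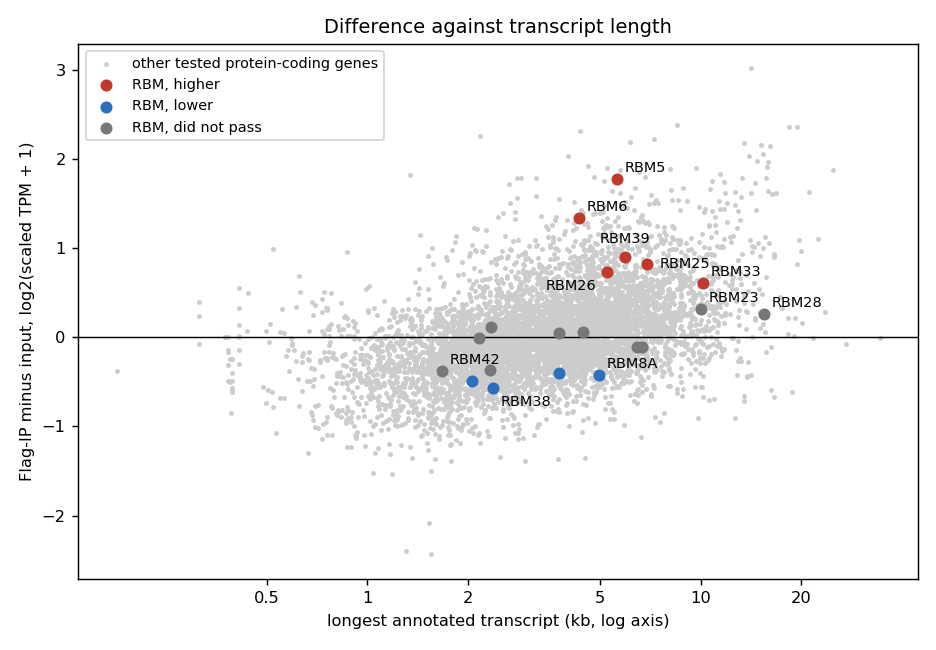
Difference between Flag-IP and input (log2 of scaled TPM + 1) against the longest annotated transcript in kilobases on a log axis, for 5963 tested protein-coding genes in light grey and the 20 tested RBM members in colour by call. RBM5 and RBM6, at 5616 and 4324 bases, lie in the upper part of the cloud for their length, while RBM33 and RBM28, at 10149 and 15507 bases, lie inside it.

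The span of the gene had a rho of 0.53 with the difference across the 20 members, close to that of transcript length, and 0.39 across all 5963 genes. The density of GGACT in the representative transcript had a rho of -0.43 with the difference across the 20 members and 0.03 across all 5963 genes. RBM5, with the largest difference, held a single GGACT (the one printed above) and the lowest density of the tested members, 0.314 per kilobase, as RBM39 held 1 at 0.402 per kilobase, while RBM6 held 6 at 1.60. RBM38, the lowest member, had the highest density, 2.10 per kilobase. Of the annotated transcripts of RBM5 16 of 26 are typed as retained introns, 61.5%, the highest share of any tested member. RBM39 has 16 of 45, RBM25 3 of 12, RBM6 4 of 20 and RBM26 1 of 7, but RBM33 has 0 of 10. Among the lower members RBM8A has 4 of 9, RBM34 4 of 10, RBM17 4 of 12 and RBM38 0 of 5. The median share was 22.5% in the 6 higher members and 36.7% in the 4 lower ones. Across the members this share had a rho of 0.16 with the difference, and 0.17 across all genes. GC content had a rho of -0.18 and -0.13. The values per gene do not show which of the annotated transcripts were recovered.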

How the data were processed

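RNA immunoprecipitation with sequencing was done on NOMO-1 cells, with 2 input and 2 Flag-IP libraries grouped by their titles. Per the submitters' processing notes, STAR, RSEM and GRCh38 were used. Annotation, strand setting and tool versions were not given in the sources used here. As for units, the authors deposited TPM per gene symbol, rounded to 2 decimals, with structural RNAs included. TPM keeps no depth, so no counting intervals are given. No column was left unused.

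Tests were run on log2(TPM + 1) for genes whose mean over the libraries reached 1 TPM, with limma 3.58.1 in R 4.3.3 (eBayes with a mean-variance trend), two-sided, with Benjamini-Hochberg adjustment over all 6487 tested genes at 0.05. This was done after median-ratio scaling (the median over tested genes of the ratio to the geometric mean, genes above 0 in all libraries) and on the deposited values. limma's prior degrees of freedom were 4.02 on the median-ratio scale and infinite on the deposited scale, where a gene's error is that of the trend. The script was tested on simulated data. Gene coordinates, transcript types and sequences came from GENCODE 29, matched by symbol (23794 of 26830 symbols, all 35 members); the representative transcript is the protein-coding one with the longest coding sequence. Shared sequence was measured as 31-base words found in transcripts of other genes.

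The members and gene lists were chosen with earlier results of these data known. Named with values in every library were members past the threshold, the 5 with the highest mean, RBM33 and members called in opposite directions; others were added to complete each role. Of each partner list the 2 largest differences and the highest mean were named, and CIRBP, RBM10, RBM23, RBM27 and RBM43 were set beside relatives after their values were seen. Alternatives were quantile scaling, structural RNAs left out of the scaling, no filter, a filter at 5 TPM, 0.1 as pseudocount, a fit without the trend, a replicate block, each library left out and removal of the length trend (loess, span 0.5); a crossed block was added after seeing the data.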

Additional observations from a re-analysis of the deposited data

How the results depend on the processing

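On the median-ratio scale 6 members were higher with quantile scaling, a pseudocount of 0.1 and no mean-variance trend. Of all tested genes 19.2%, 22.0% and 22.2% were higher in these settings. They were 8 of 20 after structural RNAs were taken out of the scaling, where 35.1% of all tested genes were higher. With no filter 7 of 31 tested members were higher (8.86% of all tested genes), and after removal of the length trend 5 of 20 (19.8%). The 4 lower members became 1, 2 and 5 in these last 3 settings, where 11.3%, 5.45% and 22.4% of all tested genes were lower. With a library left out fewer lower calls were made, among the members and among all tested genes alike. A filter at 5 TPM kept 4 members, of which 3 were higher and 0 lower, beside 25.5% and 23.1% of the 1539 genes then tested. The input means were 1.365 TPM for RBM5, 1.705 for RBM6, 2.25 for RBM39 and 4.065 for RBM10. All 4 thus passed this filter through their Flag-IP values, and the count supports nothing about the family. As deposited all 4 were higher, beside 82.7%. This filter dropped RBM25, RBM26, RBM33 and the 4 lower members. RBM5, RBM6, RBM39, RBM25 and RBM26 were higher in every alternative that tested them, with RBM5 between 1.53 and 2.41.

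Differences that had not passed changed sign in 7 members on the median-ratio scale. Removal of the length trend gave -0.013 for RBM10, -0.069 for RBM19, -0.12 for RBM23, -0.39 for RBM28 and 0.16 for RBM3. Taking structural RNAs out of the scaling gave 0.026 for RBM12, 0.053 for RBM27 and 0.23 for RBM3, and quantile scaling gave -0.016 for RBM19. With a library left out RBM10 ran from -0.030 (without Flag-IP 3) to 0.13, RBM3 from -0.084 to 0.072 (without input 1; 0.00042 without Flag-IP 3) and, as deposited, RBM4B from -0.26 (without Flag-IP 1) to 0.79. The cause was not tested.

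With a library left out the members' median deposited difference ran from 0.86 to 1.14, and that of all tested genes from 0.73 to 0.97. Same-numbered libraries deviated in opposite directions (correlation -0.19 across genes), and nothing shows that the numbers pair them. With the replicate block 6 members were higher and 3 lower, beside 19.8% and 16.3% of all tested genes. The deposited counts were then 14 and 0, beside 73.8% and 0.54%. With the numbers crossed, chosen after seeing the data, 6 were higher and 4 lower, beside 21.7% and 19.7%. On the deposited scale these were 18 and 0, beside 91.1% and 0.89%. The unknown depth limits all members near 1 TPM.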
